A study of Mus musculus with 16 samples.

Results

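The photoreceptor fate transcription factors are 10 genes that set and keep rod and cone identity: Otx2, Crx, Neurod1, Nrl, Nr2e3, Rorb, Thrb, Casz1, Prdm1 and Mef2d. They were taken by symbol from the 25905 genes of the authors' deposited table, and 10 of 10 were found. Retinas from right eyes of wild type C57BL/6 mice, male and labelled 10-week old, gave 16 RNA-seq libraries, 8 from spaceflight mice housed aboard the International Space Station and 8 from ground control mice kept on Earth in the same hardware and on the same diet. The paper gives this age for the mice that were flown. Those mice returned alive and their eyes were collected after splashdown, so they were older than the label at collection. Each library was made from 100 ng of total RNA of the whole retina. The difference between spaceflight and ground control was not analysed here, since no label pairs the columns of counts per library with a mouse or a group and the authors' own fold-changes and p-values were not used. The levels below describe all 16 libraries together, with no SD, and counting depth per library is not analysed here.

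Photoreceptors are born from retinal progenitors in which the homeodomain factor Otx2 commits cells to the photoreceptor lineage and switches on Crx, its close relative. Rorb and Crx lead to Nrl, the leucine zipper factor that directs precursors to the rod fate, and Nrl in turn drives Nr2e3, a nuclear receptor that represses cone genes in rods. Where Nrl is missing, cells take a cone fate, and Thrb, a thyroid hormone receptor with a cone isoform, sets which cone opsin is made. Neurod1, Prdm1, Casz1 and Mef2d act around this core, in precursor differentiation, in the choice against the bipolar fate, in rod nuclear organization and in the activation of photoreceptor genes together with Crx.

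Among the members, Mef2d and Neurod1 had the highest values in the retina and Crx and Nrl the lowest. Crx and Nrl each have 2 RefSeq transcripts in the count table, a class with lower values over the whole table, as given below. The place of Nrl among the members changed widely with the length used, while Crx stayed among the lowest 3 on each length. Since genes of this class had lower values, the low place of neither is taken as a rank of expression. The value of each gene is the authors' mean normalized count, which is the count of a library divided by its DESeq2 size factor and averaged over all libraries. Mef2d, a MADS-box factor, had a mean normalized count of 4935. Neurod1, a basic helix-loop-helix factor, followed with 4836. Nr2e3 came next with 3390. These 3 genes stood well above the rest of the group. Casz1, a zinc finger factor, had a mean normalized count of 1356. For Otx2 the value was 1046. Rorb, an orphan nuclear receptor, had 469. The remaining 4 members lay well below these. The mean normalized count of Prdm1, a zinc finger repressor that acts transiently in newborn photoreceptors, was 129.7, and that of Thrb was 128. Nrl was listed at 88.9 and Crx at 67.0. The highest member was 73.6 times the lowest, and 10 of 10 members reached a mean normalized count of 10, while 8 reached 100. Over the whole table, 12374 of 25905 genes reached 10. Of genes with only curated RefSeq transcripts, 42.9% of those with 1 listed and 11.3% of those with 2 reached 100.

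**Figure D1:**
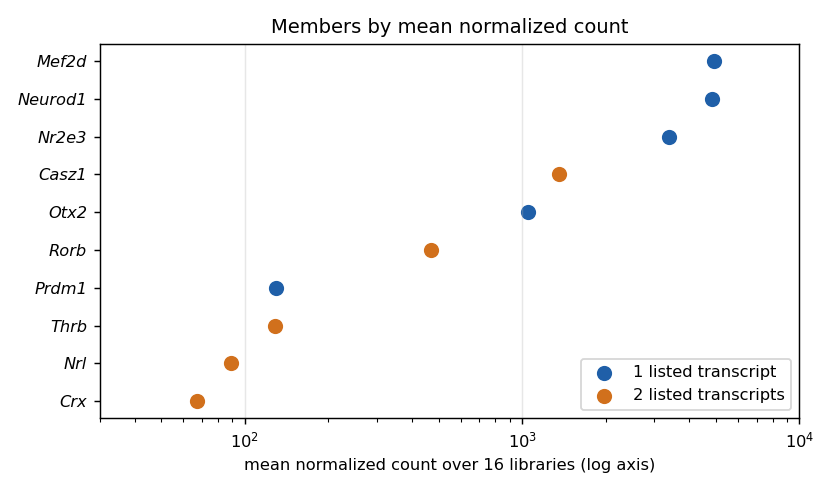
Mean normalized count over all libraries of both groups for each of the 10 members, on a log axis, with colour giving the number of RefSeq transcripts that the count table lists for the gene. The 5 genes with 2 listed transcripts run from 67.0 for Crx to 1356 for Casz1, and 3 of them are the lowest of the group.

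Longer transcripts collect more reads, so levels were compared between genes per kb of the longest annotated transcript in GENCODE. Neurod1 then ranked first, with a mean normalized count per kb of 1772, more than 99.0% of the 10612 genes that had a mean normalized count of at least 10 and a length. Nr2e3 had 1262 per kb, at percentile 98.2. Mef2d had 914 per kb, at percentile 97.4. Otx2, with 403 per kb, lay at percentile 92.3, and Casz1, with 171 per kb, at percentile 79.0. The lower members were Rorb with 50.5 per kb, Prdm1 with 24.6, Crx with 23.0, Thrb with 20.7 and Nrl with 17.9, at percentiles between 22.8 and 46.0. Prdm1, Crx, Thrb and Nrl were thus close to each other, and without a spread over libraries their order cannot be told. In whole retina, the number of cells that express a gene and the RNA per cell cannot be told apart, and photoreceptor factors share this tissue with the bipolar cells that also use Otx2 and Neurod1-family factors.

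The 3 members with the lowest values, Crx, Nrl and Thrb, each have more than 1 listed transcript, though Rorb and Casz1, which also do, were above Prdm1, and Casz1 was above Otx2. In the deposited count table the rows are RefSeq transcripts, 31616 in all, and not genes. Nr2e3, Otx2, Neurod1, Prdm1 and Mef2d are each listed with 1 transcript, and Crx, Nrl, Rorb, Thrb and Casz1 with 2. The median mean normalized count was 3390 in the first set of 5 genes and 128 in the second. The number of listed transcripts moved with the level over the whole table as well. Among genes with only curated RefSeq transcripts, the 16959 genes with 1 listed transcript had a median of 52.2, and 61.1% of them reached a mean normalized count of 10 (95% Wilson interval 60.4 to 61.8%, counting error only). The 2071 genes with 2 listed transcripts had a median of 1.62, and 30.5% of them reached 10 (interval 28.5 to 32.5%). Members were then set beside all genes of the same class, by mean normalized count with no length scaling and no minimum. These percentiles differ in scale and in gene pool from those per kb above, so they cannot be compared with them directly. Crx lay above 86.1% of the 2-transcript genes with known exons and Nrl above 87.8%. Thrb lay above 90.5%, Rorb above 96.4% and Casz1 above 99.2%. Of the members with 1 listed transcript, Prdm1 lay above 61.0% of the 1-transcript genes, Otx2 above 92.5%, Nr2e3 above 98.7%, and Neurod1 and Mef2d above 99.3%. How HTSeq was set to treat a read that lies on several transcripts, and how the rows of a gene were joined into 1 value, is not given in the sources used here, and the part of this in the levels was not tested.

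**Figure D2:**
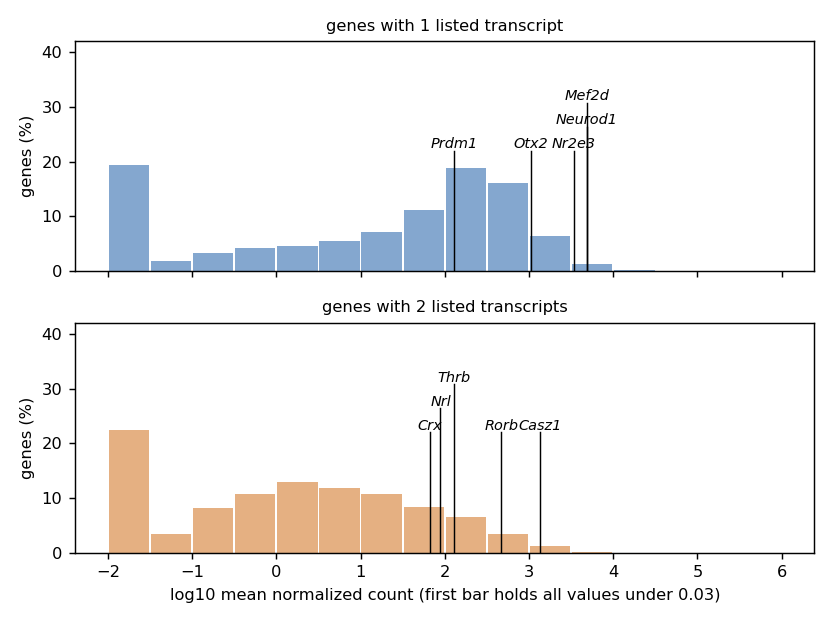
Share of genes in percent (y axis) by the log10 of the mean normalized count (x axis), above for genes with 1 listed curated transcript and below for genes with 2, with black lines at the members. The distribution for 2 transcripts, with a median of 1.62, lies to the left of that for 1 transcript, with a median of 52.2, and Crx, Nrl, Thrb, Rorb and Casz1 stand in its upper part.

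The 5 members with 2 listed transcripts differ in how much of the gene the transcripts share. Exons were taken from GENCODE transcripts matched to the listed RefSeq identifiers, and a base was counted as unshared when only 1 of the listed transcripts of the gene holds it. Nrl has the fewest unshared bases, 82, against 2422 in both transcripts, and all 82 lie in the 5′ UTR of the longer one. A transcript of Nrl with 3 exons has 0 bases of its own. Crx has 269 unshared bases against 2765 shared, and its transcripts begin at separate start sites, with 39 of the unshared bases coding in 1 transcript. Rorb has 756 unshared bases against 8648 shared, most of them in the 5′ UTR, and it too has separate start sites. These 3 genes have 3.27%, 8.87% and 8.04% of their listed bases unshared. In Thrb, the transcripts also begin at separate start sites, and 40.7% of the bases are unshared. Of these, 283 coding bases belong to the transcript with 10 exons and 325 to the transcript with 7, which also holds 1531 bases of 3′ UTR. In Casz1, 54.9% of the bases are unshared, and the transcript with 21 exons alone holds 1792 coding bases and 2318 bases of 3′ UTR. Casz1 had both the highest value of the 5 and the most unshared sequence, but the order of the others did not follow the unshared share. Rorb, with 8.04%, had a mean normalized count of 469, and Thrb, with 40.7%, had 128. Nrl, with 3.27%, had 88.9, and Crx, with 8.87%, had 67.0.

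**Figure D3:**
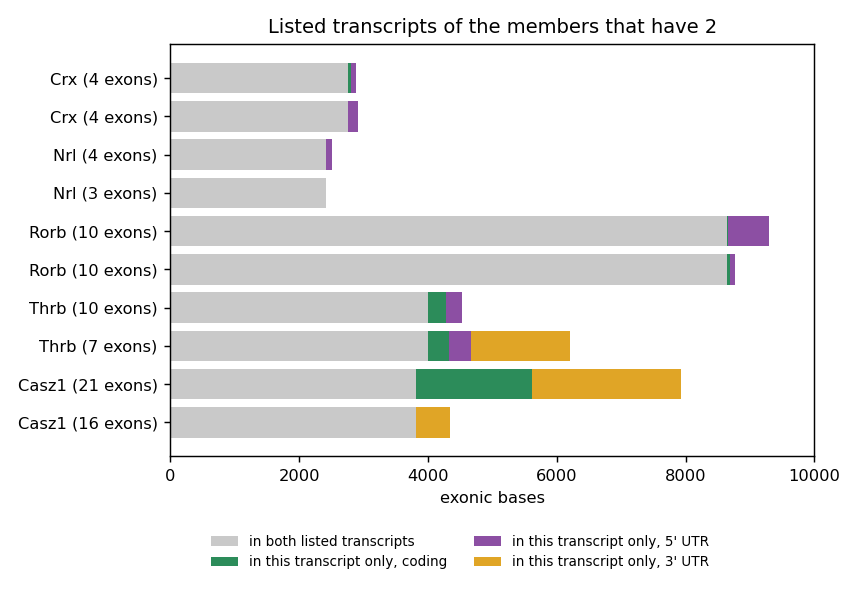
Exonic bases of each listed transcript of the 5 members that have 2, split into bases that both transcripts hold and bases of that transcript alone by coding and UTR part. Nrl has 82 bases in 1 transcript only, while Casz1 has 4643.

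Over all 1774 genes with 2 listed curated transcripts and known exons, the level moved with the unshared share. Where under 5% of the bases were unshared, 292 genes had a median mean normalized count of 0.360, and 4.79% of them reached 10. Nrl belongs to this bin with its 88.9. Between 5 and 10%, where Crx and Rorb belong, 248 genes had a median of 0.861, and 14.1% reached 10. The bin from 25 to 50%, which holds Thrb, had a median of 2.56 over 361 genes. From 50% upward, where Casz1 belongs, the median was 20.9 over 495 genes, and 58.6% reached 10. All 5 members were above the median of their bin.

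Divided by unshared bases in place of the longest transcript, a setting chosen after seeing the data, the order of the members changed. Nrl moved from the last place to 1084 per kb, at percentile 97.5, behind Neurod1 and Nr2e3 (1664 per kb of its own listed transcript). Rorb rose to 621 per kb and stood beside Otx2, at 602. Crx reached 249 per kb, close to Casz1 at 292. Thrb, at 46.8 per kb, and Prdm1, at 32.2, were the lowest under this scale. For Nrl the value rests on 82 bases, all of them in the 5′ UTR, which is little more than the length of a read. The scale takes reads to count only on unshared bases and makes no allowance for read length. As the rule for reads on several transcripts is not given, the values of Nrl, Crx and Rorb on this scale could be off in either direction.

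**Figure D4:**
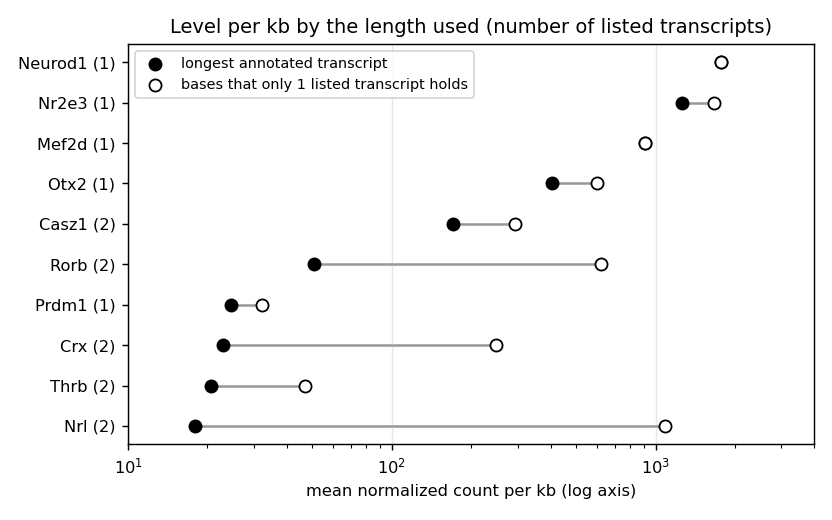
Mean normalized count per kb of each member on a log axis, with filled points for the longest annotated transcript and open points for the bases that only 1 listed transcript holds. Nrl moves from 17.9 to 1084 and Rorb from 50.5 to 621, whereas Neurod1 and Mef2d, with 1 listed transcript, stay at 1772 and 914.

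Rod genes, many of which these factors are known to drive, included some of the highest genes of the retina. Of 17 rod genes, 15 have 1 listed transcript, and their median was 6295 per kb, 6.89 times that of the 5 members with 1 listed transcript. Gnat1, the rod transducin alpha subunit, reached 65623 per kb. At the low end of the rod genes with 1 listed transcript, Cngb1, a channel subunit, had 23.4 per kb. The 2 rod genes with several listed transcripts, Gnb1 and Pdc, were listed at mean normalized counts of 0.266 and 0.225. Both encode rod proteins, but protein was not measured here. The part of the number of listed transcripts in these 2 values was not tested. The 10 members together took 0.235% of all mean normalized counts.

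Cone genes were lower than rod genes. The 8 cone genes with 1 listed transcript had a median of 511 per kb, 0.560 times that of the 5 members with 1 listed transcript. The cone opsins led them, Opn1sw with 1162 per kb and Opn1mw, the opsin that depends on Thrb, with 1148. Both were above the 914 per kb of Mef2d and below the 1262 per kb of Nr2e3. Gngt2 and Pde6c, with 2 listed transcripts each, had mean normalized counts of 4.02 and 0.0699. Over all the other fixed lists, 13 of 18 genes with 2 or more listed transcripts were under a mean normalized count of 10, against 10 of 113 genes with 1.

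**Figure D5:**
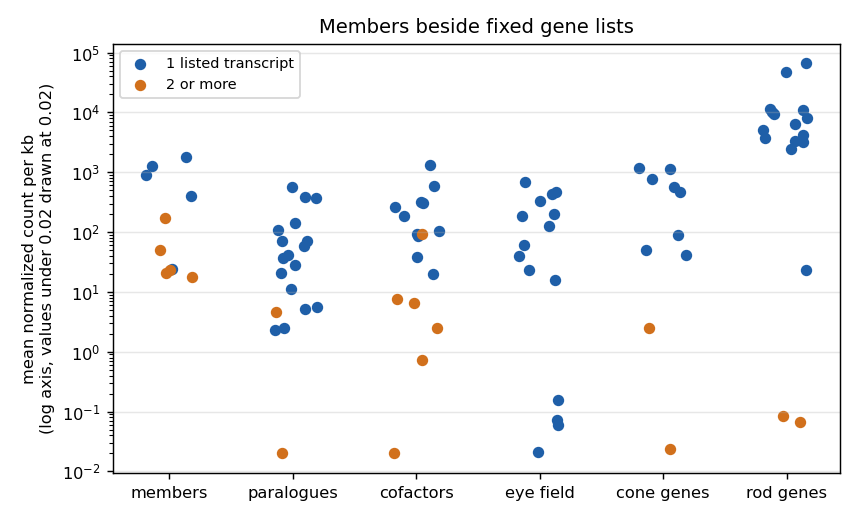
Mean normalized count per kb on a log axis for the members and 5 fixed gene lists, 1 point per gene, coloured by the number of listed transcripts. Rod genes with 1 listed transcript lie highest, with a median of 6295, and most genes with 2 or more listed transcripts lie low in their list, with exceptions such as Esrrb at 94.2 among the cofactors.

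The members other than Casz1, for which no relative was listed, were set beside close relatives in the genome, per kb of the longest transcript. Nr2e3 held 96.9% of the summed level per kb of its pair with Nr2e1, the progenitor factor, which had 40.8. Otx2 held 93.5% of the sum over Otx2, Crx and Otx1, of which Otx1 had 5.28. This share rests on the value of Crx, and per kb of unshared bases it was 69.9%, with Crx at 28.9%. Mef2d held 86.2% of the sum of the MEF2 family, ahead of Mef2a with 141 per kb and Mef2c with 4.65, while Mef2b was listed at 0. Mef2c and Mef2b have 2 listed transcripts each. Neurod1 held 73.1% of its family, ahead of Neurod4 with 576 per kb, Neurod2 with 69.7 and Neurod6 with 5.66. These 4 members were the highest of their families, and per kb of unshared bases, a setting chosen after seeing the data, 6 were, with Nrl and Rorb added. Prdm1 held 5.48% beside Prdm8, a bipolar factor, with 364 per kb and Prdm13, an amacrine factor, with 59.6. Those 3 genes have 1 listed transcript each, so Prdm1 and its relatives do not differ in the number of listed transcripts.

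Thrb, Rorb, Nrl and Crx, with 2 listed transcripts each, ranked behind a relative with 1 on the scale of the longest transcript. Thrb held 5.07% of the pair with Thra, the ubiquitous thyroid hormone receptor, which had 387 per kb. Rorb, with 50.5 per kb, was behind Rora, which had 106. Nrl, with 17.9 per kb, was behind Maf, a large MAF factor with 28.1, and ahead of Mafa with 2.49. Crx held 5.32% beside Otx2.

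Partners and cofactors of the members spanned a wide range. Of 18 listed, 17 were in the table and 14 had a mean normalized count of at least 10. Nr1d1, a nuclear receptor that acts with Nr2e3 and in the circadian clock, was the highest with 1341 per kb, followed by the corepressor Ncor1 with 581. Sp4 was listed at 0 with 2 transcripts, and Rxrg, the cone retinoid receptor that pairs with Thrb, had 7.55 per kb, also with 2. Esrrb, an orphan receptor that rods need for survival, had 94.2 per kb with 2 listed transcripts.

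Factors of the early eye and of progenitors were measured with 1 transcript each, 15 of 15. Pax6 had 472 and Six3 438 per kb, near the 403 per kb of Otx2. Olig2, a factor of dividing progenitors, was lowest with 0.0214 per kb, and Atoh7, Foxn4 and Ptf1a, which also act in progenitors, were under a mean normalized count of 1. Prdm1, with 24.6 per kb, lay above these 4 and close to Onecut1, a horizontal cell factor, with 23.1.

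Marker genes of other cell types of the retina were also detected. For comparison, 42.9% of all curated genes with 1 listed transcript and 11.3% of those with 2 reached a mean normalized count of 100. Of 9 bipolar genes, a list that includes Otx2, 8 reached a mean normalized count of 100, or 7 of 8 without it, and of 6 Müller glia genes 5 did, led by Glul with 6252 per kb. Amacrine and horizontal genes reached 100 in 6 of 7 cases and ganglion cell genes in 5 of 6. The bipolar, Müller glia and ganglion cell genes that did not, Pcp2, Rlbp1 and Rbpms, have 2 or 3 listed transcripts each. Pecam1, the lowest of the endothelial list, has 2. Microglia genes reached 100 in 0 of 6 cases, though 5 of the 6 reached 10. Blood genes reached 100 in 0 of 4 cases, with Alas2, which has 2 listed transcripts, at 0. Pigment epithelium genes, led by Ttr with 455 per kb, reached 100 in 5 of 7 cases, endothelial genes, led by Kdr, in 1 of 4, and lens genes, led by Cryaa with 709 per kb, in 4 of 6. The median of the lens list was 196 per kb. Several crystallins of that list are also expressed in retina. The part of these cells in the members' levels was not tested.

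Sequences upstream of the members were searched for letters that factors of the group are known to bind. RefSeq promoter sequences of the assembly GRCm38.p6, matched by symbol, gave 16 windows of 250 bases before a start site, with at least 1 for 10 of 10 members. The authors mapped reads to an older assembly, and no position was compared with theirs. The letters were TAATCC for the homeodomain factors OTX2 and CRX (GGATTA on the other strand), TGCTGA for NRL (TCAGCA on the other strand), AGGTCA for nuclear receptors (TGACCT on the other strand) and CAGATG for NEUROD1 (CATCTG on the other strand), together with the MEF2 letters CTA and TAG with 4 bases between them.

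RefSeq and GENCODE place some start sites differently, so part of a window can lie in an annotated exon. Of 15 matches in the windows of members, 7 lay in exons, among them both matches of Neurod1, all of Otx2 and the match of Nrl. The other 8 lay outside exons, in Crx, Casz1, Rorb, Mef2d and Thrb. The 4 stretches shown are those of members whose matches all lie outside exons, cut to the bases that no annotated exon covers. Capitals mark the matches, on either strand.
Crx, chr7:15879969-15880205, minus strand: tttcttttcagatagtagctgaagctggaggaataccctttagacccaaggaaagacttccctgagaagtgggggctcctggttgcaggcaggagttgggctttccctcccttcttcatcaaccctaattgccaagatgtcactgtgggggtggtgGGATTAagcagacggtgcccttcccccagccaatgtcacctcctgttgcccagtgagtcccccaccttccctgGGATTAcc
Casz1, chr4:148889097-148889346, plus strand: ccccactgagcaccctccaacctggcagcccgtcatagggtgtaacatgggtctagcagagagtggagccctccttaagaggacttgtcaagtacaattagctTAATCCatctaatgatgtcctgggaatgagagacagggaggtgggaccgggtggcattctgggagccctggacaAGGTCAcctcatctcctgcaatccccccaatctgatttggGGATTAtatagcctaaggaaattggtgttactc
Rorb, chr19:19111197-19111446, minus strand: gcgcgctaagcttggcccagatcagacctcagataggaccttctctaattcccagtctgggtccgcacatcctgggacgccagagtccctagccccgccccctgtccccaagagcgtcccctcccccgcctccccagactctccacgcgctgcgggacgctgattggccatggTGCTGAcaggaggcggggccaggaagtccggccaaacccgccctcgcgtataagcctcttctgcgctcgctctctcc
Mef2d, chr3:88142122-88142371, plus strand: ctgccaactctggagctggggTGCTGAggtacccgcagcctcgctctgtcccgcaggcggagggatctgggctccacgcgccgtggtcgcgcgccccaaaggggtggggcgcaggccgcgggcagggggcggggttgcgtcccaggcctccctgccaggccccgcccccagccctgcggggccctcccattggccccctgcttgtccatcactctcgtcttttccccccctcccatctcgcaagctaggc

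TAATCC was found upstream of 4 members, in 4 of 16 windows, against 6.25% of all 32851 promoter windows of the same length. The Crx sequence, whose own product binds these letters, has 2 matches, at 94 and 21 bases before the RefSeq start site. The Casz1 sequence also has 2, and lies before a start site inside the gene rather than before the start that both listed transcripts share. In Otx2 and Thrb the matches lay in annotated exons. Of 10 rod gene windows, 4 hold the letters, and of 7 cone gene windows, 1 does. These windows are few, and a match is a description of letters, not of binding.

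The other letters were found in fewer windows or at shares nearer to those of all promoters. TGCTGA stood in windows of Otx2, Rorb, Neurod1 and Mef2d, again 4 of 16, against 16.1% of all. It lies 77 bases before the start site in Rorb and 229 bases before it in Mef2d. AGGTCA was found in windows of Thrb and Casz1, 12.5% against 14.0% of all. CAGATG was found in windows of Nrl and Otx2, 12.5% against 14.4%. The MEF2 letters were in 0 of 16 windows, against 3.20% of all. None of the letters searched was found in the windows of Nr2e3 and Prdm1.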

How the data were processed

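RNA of 16 mouse retinas, 8 of spaceflight and 8 of ground control mice grouped by title, was sequenced. The authors' notes name Trimmomatic for trimming, TopHat2 for alignment to NCBI build 37.2, HTSeq for counting and DESeq2 1.22.2 under R 3.5.1. The only measurement used is a deposited signal, 1 mean per gene of size-factor-normalized counts. The count tables hold 32 columns of values per library under laboratory codes that no label matches. They were not used, nor were the authors' fold-changes, standard errors, Wald statistics and p-values. The planned quasi-likelihood test of spaceflight against ground control was therefore not run. Of the count table, transcript identifiers and symbols were read.

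Lengths and exons came from GENCODE M21 (GRCm38), by symbol or RefSeq identifier. A length was matched for 85.8% of the 12374 genes with a mean of at least 10, and exons for 85.7% of the 2071 genes with 2 curated transcripts. Named with values are the 10 members, their relatives, and up to 3 of the highest and the lowest of other lists. Genes named beyond this, for several listed transcripts or for values near those of a member, were chosen after their values were seen. The members and lists were chosen with earlier results of these data known, and the motifs and the unshared bases after the files were seen. Values of some listed genes are not reported here. Sequence steps were tested on simulated data. Tables were handled in Python 3.11.15 with pandas 2.3.3, and figures drawn with matplotlib 3.10.9.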

Additional observations from a re-analysis of the deposited data

How the results depend on the processing

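The median percentile of the 10 members per kb was 62.5 with the longest annotated transcript. It was 70.0 with the median and 68.7 with the shortest annotated transcript length, 75.05 among all genes with a mean above 0 and 44.6 among genes with a mean of at least 100. With 2 lengths chosen after seeing the data, it was 59.2 for the longest listed transcript and 94.9 for the bases that only 1 listed transcript holds. The last alternative moves Nrl, Rorb and Crx by its construction, since their listed transcripts share nearly all bases. Between 9 and 10 of the 10 members' own percentiles moved by more than their counting interval under each of these settings. For the changes of gene pool this follows largely from construction, since genes with low values were added or removed. The 4 members that were the highest of their families, Otx2, Nr2e3, Neurod1 and Mef2d, were counted as 4 with the median length and with no length scaling as well, and the count was 6 per kb of unshared bases, chosen after seeing the data, where Nrl and Rorb were added. On the strand of the gene alone, TAATCC was upstream of 1 member in place of 4, TGCTGA of 2 in place of 4 and CAGATG of 1 in place of 2, while AGGTCA stayed at 2 and the MEF2 letters at 0. No paired analysis was possible because the columns of counts per library carry no replicate number or group. For the same reason the edgeR and DESeq2 fits, the threshold of 0.05 and the fits that leave out a library were not run. The spread between mice and the depth per library therefore set no limit here that could be measured.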
